A study of Mus musculus with 4 samples.

Results

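Rab GTPases and the effectors of Rab11 are described here in mouse embryonic stem cells that lose Oct4. The set holds every gene whose name on the array is Rab followed by a number, with at most 1 letter and 1 more digit, or Rab11fip1 to Rab11fip5. These names cover 59 genes of 27670 on the array: 54 Rab genes and 5 Rab11 family interacting proteins, on 111 probes. Of these, 55 genes were bright enough to be tested, among 21409 tested genes in all. Rab1, Rab2 and Rab6 on the array carry the current symbols Rab1a, Rab2a and Rab6a.

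The cells are ZHBTc4, a single line of such cells whose only source of Oct4 (Pou5f1) is a transgene that doxycycline turns off. All cells had been grown on irradiated embryonic fibroblasts and then moved to gelatin for 2 passages. The dox group received 2 µg doxycycline for 48 h, with no volume given in the labels, and the dox+TCP group received TCP as well. The labels do not spell TCP out; in work on the histone demethylase LSD1, which the study's title names, it usually stands for tranylcypromine, an inhibitor of that enzyme. Each group had 2 biological replicates, each on its own 2-colour array with treated cells in Cy5. The other dye, Cy3, carried ZHBTc4 cells with no treatment named, called the reference below, and no dyes were swapped. Values are therefore log2 ratios of treated cells over the reference, where 1 is a doubling of the ratio. Any dye preference of a probe remains in a ratio to the reference and cancels only between dox+TCP and dox.

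Rab proteins are small GTPases that switch between a GDP-bound soluble state and a GTP-bound membrane state, and each marks particular membranes and vesicles. Exchange factors (GEFs) load them with GTP, GTPase-activating proteins (GAPs) turn them off, GDI proteins extract them from membranes, and effectors carry out the transport step. Rab11a, Rab11b and Rab25 form the Rab11 subfamily of the recycling endosome; Rab25 is restricted to epithelia, and Rab11fip1 (also called RCP) is one of the proteins that link Rab11 GTPases to motors and cargo. Both are known for delivery of proteins to the apical face of epithelial cells, and trophectoderm, toward which embryonic stem cells turn when Oct4 is lost, is an epithelium.

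Promoter sequence was at hand for 48 of the 59 genes, as 250 bases upstream of each start in RefSeq's annotation of GRCm38.p6. The promoters of 4 genes are shown, chosen by their results: Rab25, which was lower in treated cells, and Rab11fip5, Rab15 and Rab20, which were higher. For Rab11fip1 and Rab2a, which were also higher, no promoter sequence was at hand. They are written 5′ to 3′ on the gene's strand, with capitals for the motifs searched. These were the element bound by grainyhead-like factors (AACCNGTT), the octamer bound by Oct4 and its relatives (ATGCAAAT), the cyclic AMP response element (TGACGTCA) and the GC box (GGGCGG), each on both strands. All 4 promoters lie on the minus strand: Rab25 at chr3:88548280-88548529, Rab11fip5 at chr6:85374635-85374884, Rab15 at chr12:76822525-76822774 (the farthest upstream of 4 listed) and Rab20 at chr8:11478641-11478890.
Rab25: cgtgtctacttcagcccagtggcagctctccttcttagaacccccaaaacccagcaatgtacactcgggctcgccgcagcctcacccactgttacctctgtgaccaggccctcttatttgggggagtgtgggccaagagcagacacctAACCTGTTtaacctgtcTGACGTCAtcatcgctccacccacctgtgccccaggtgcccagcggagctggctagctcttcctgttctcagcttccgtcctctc
Rab11fip5: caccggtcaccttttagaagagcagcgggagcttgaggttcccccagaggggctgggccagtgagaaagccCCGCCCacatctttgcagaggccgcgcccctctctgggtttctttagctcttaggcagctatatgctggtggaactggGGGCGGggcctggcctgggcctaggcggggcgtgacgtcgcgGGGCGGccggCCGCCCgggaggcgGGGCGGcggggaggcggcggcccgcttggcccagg
Rab15: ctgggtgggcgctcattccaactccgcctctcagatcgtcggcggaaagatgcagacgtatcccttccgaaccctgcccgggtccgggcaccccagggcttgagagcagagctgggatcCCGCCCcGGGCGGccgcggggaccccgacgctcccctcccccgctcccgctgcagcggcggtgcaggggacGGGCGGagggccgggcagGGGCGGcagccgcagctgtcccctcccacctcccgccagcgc
Rab20: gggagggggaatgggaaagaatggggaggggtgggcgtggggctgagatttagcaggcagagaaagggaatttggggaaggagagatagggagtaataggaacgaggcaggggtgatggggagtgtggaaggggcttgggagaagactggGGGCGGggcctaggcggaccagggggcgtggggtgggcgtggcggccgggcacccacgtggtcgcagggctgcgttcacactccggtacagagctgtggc
The Rab25 promoter holds 1 grainyhead-like element, 102 to 95 bases before the start, and 1 cyclic AMP response element, 85 to 78 bases before it, and no GC box. The promoters of Rab11fip5, Rab15 and Rab20 hold 5, 4 and 1 GC boxes and neither of those elements. The grainyhead-like element occurs in 1.79% of all 32851 promoters in the table and in 2 of the set's 59 promoters, those of Rab25 and Rab11fip2. The cyclic AMP response element occurs in 1.55% of all promoters and in those of Rab25, Rab11fip3 and Rab5a. The GC box occurs in 67.8% of the set's promoters, against 32.7% of all promoters, and the octamer in none of the set's, against 1.6%. Rab1b, which was lower with dox+TCP, is among the genes with a GC box. A match says that these letters are present and nothing about a factor bound there.

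The median spot signal of an array ran from 213 to 249 in Cy5 and from 108 to 141 in Cy3, and no spot was saturated. Pou5f1, the gene that doxycycline shuts off, had log2 ratios of -3.38 and -3.62 with dox and -3.29 and -3.28 with dox+TCP (limma adjusted p = 0.0105 and 0.0146 against the reference). The 8 stem cell markers were all lower with dox, and 7 of 8 with dox+TCP. None of 10 trophoblast markers passed the test, and their median log2 ratio was 2.44 with dox and 1.67 with dox+TCP in replicate 1, and 0.39 with dox and 0.19 with dox+TCP in replicate 2. In the reference channel, 9 of these 10 markers were brighter in replicate 2, by a median of 1.46, so the replicate 1 and replicate 2 references stand apart. For the Rab set, 43 of 55 tested genes were brighter in the replicate 2 reference, against 12772 of 21346 over all genes. The median gap was 0.12 for the set and 0.07 over all genes. A gap of at least 0.5 either way was seen in 10.9% of the set and 14.5% of all genes. The replicate 2 references also differed from each other, by a median of 0.24 either way for the set (0.21 over all genes), against 0.05 between the replicate 1 references (0.05 over all genes). Rab5c, for example, had reference levels of 13.28 and 11.87 on the dox and dox+TCP arrays of replicate 2. The part of these reference differences in the ratios was not tested. The 11 fibroblast markers were all measurable; their summed log2 level was 13.85 to 14.32 in Cy5 and 14.05 to 14.66 in Cy3, with 1 marker lower with dox, and 1 higher and 1 lower with dox+TCP.

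With dox, 14 of the 55 tested genes differed from the reference at an adjusted p under 0.05 in limma, 11 of them higher and 3 lower. That is 25.5% of the set, against 14.6% of all tested genes. Split by direction, 20% of the set was higher against 6.32% of all genes, and 5.45% was lower against 8.28%. With dox+TCP, 14 of 55 also passed, 10 higher and 4 lower, against 15.4% of all genes in either direction, 7.31% higher and 8.09% lower. By size, 5 members lay at least 1 from 0 on the log2 scale in each comparison (9.09%), against 10.3% of all genes with dox and 9.57% with dox+TCP. The median log2 ratio of the set was 0.11 with dox and 0.09 with dox+TCP, against -0.001 and 0.03 over all genes. Both comparisons are ratios to reference RNA that the labels describe alike, so their calls are not set against each other. In these ratios, a change in the share of cells of a type and a change in RNA per cell cannot be told apart.

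These counts moved with the arrays in the fit, with the handling of bright backgrounds and with the normalization. All 14 calls with dox were lost when the spread came from the dox arrays alone, where 0% of all genes passed. With the dox+TCP arrays alone, 25 members passed with dox+TCP, and 27.7% of all genes passed. The set's median log2 ratio with dox was 0.06 without dox replicate 1 and 0.20 without dox replicate 2. With dox+TCP that median was 0.04 without dox+TCP replicate 1 and 0.09 without dox+TCP replicate 2. No member passed in either comparison when unusually bright local backgrounds were used as read. With each array centred on its median in place of loess, the median of all genes moved to 0.18 in both comparisons, and the split became 27 higher and 1 lower with dox and 20 higher and 1 lower with dox+TCP. Over all genes that setting called 28.1% with dox and 23.9% with dox+TCP, of which 81.1% and 78.3% were higher, so the shift was not limited to the set. The 1 lower gene was then Rab38. With the replicate number, which the 2 replicate 1 arrays share along with a slide, as a block, 20 genes passed with dox, 12 higher and 8 lower. Over all genes the block called 22.8%, 44% of them higher.

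**Figure D1:**
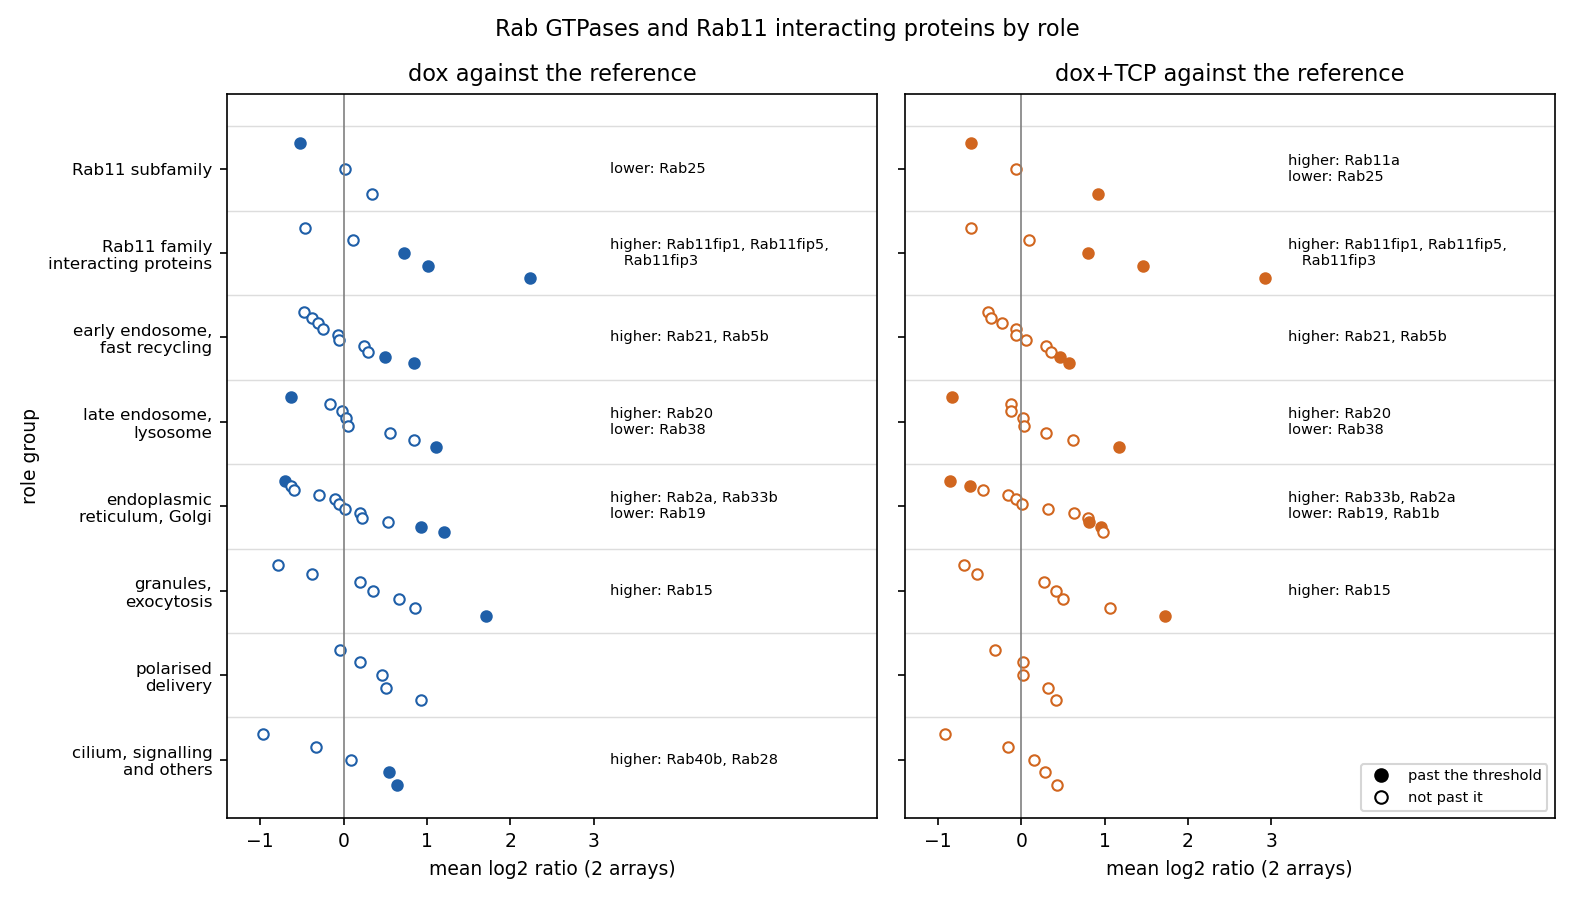
Mean log2 ratio to the reference (x axis) of the 55 tested Rab and Rab11fip genes, by role group (y axis), with dox in the left panel and dox+TCP in the right panel. Each point is 1 gene, filled where limma's adjusted p was under 0.05, with those genes named beside the row; Rab11fip1 lies farthest to the right in both panels, at 2.24 and 2.92.

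Within the Rab11 subfamily, the epithelial member Rab25 was lower in treated cells while Rab11a and Rab11b were not lower in either group. The Rab25 probe (chr3:88656153-88656542 in mm7) gave log2 ratios of -0.60 and -0.45 with dox and -0.63 and -0.59 with dox+TCP. It was below 0 on all 4 arrays, and the groups overlapped. The mean was -0.53 ± 0.09 with dox and -0.61 ± 0.09 with dox+TCP (limma adjusted p = 0.0376 and 0.0297). Each mean is of 2 arrays. Here and below, ± is limma's SE, whose spread is pooled over both groups and moderated over all genes. The scanner software's own ratios for Rab25 were -0.90, -0.54, -0.97 and -0.82 in the same array order, and with these ratios the dox value no longer passed (mean -0.72). Centred on array medians, the Rab25 means were -0.33 and -0.43 and neither passed. The gene was measurable in both channels of every array, with normalized log2 levels of 7.18 to 7.64 in Cy5 and 7.80 to 8.09 in Cy3.

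Rab11a, the widely expressed GTPase of the recycling endosome, gave log2 ratios of 0.65 and 0.03 with dox and 0.88 and 0.96 with dox+TCP. The 2 dox values differed by more than the dox+TCP values did, and both lay below the dox+TCP values. Its mean was 0.34 ± 0.18 with dox (limma adjusted p = 0.292) and 0.92 ± 0.18 with dox+TCP (limma adjusted p = 0.0495, 1.89-fold). The 3 Rab11a probes did not give the same values: another gave 1.04, 0.88, 1.15 and 1.07 and passed in both comparisons (limma adjusted p over probes = 0.0206 and 0.0188), and the last gave 0.79, -0.49, 0.27 and -0.18. Adjusted over probes in the same way, the first Rab11a probe just missed with dox+TCP (limma adjusted p over probes = 0.0501). Rab11b, its close relative, gave 0.04 and 0.00 with dox and -0.06 and -0.07 with dox+TCP, and passed in neither comparison. A second Rab11b probe gave 0.66, 0.62, 0.76 and 0.17, and it passed in neither comparison either. Cross-hybridisation between close relatives such as these was not tested.

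The Rab11 family interacting proteins held the largest rise of the set. Of the 5, Rab11fip1, Rab11fip3 and Rab11fip5 rose in both groups, and Rab11fip2 and Rab11fip4 passed in neither. Rab11fip1 (probe at chr8:25898605-25898664 in mm7) gave log2 ratios of 1.83 and 2.66 with dox and 2.62 and 3.23 with dox+TCP. Each array was far above 0, and the groups overlapped, since dox replicate 2 lay above dox+TCP replicate 1. The mean rise was 2.24 ± 0.27 with dox, or 4.73-fold, and 2.92 ± 0.27 with dox+TCP, or 7.57-fold (limma adjusted p = 0.0256 and 0.0191). The scanner software's ratios were 1.89, 2.84, 2.67 and 3.27. A second probe of the gene gave 1.96, 1.37, 1.64 and 1.32, which is above 0 on every array, but its dox+TCP mean of 1.48 was lower than its dox mean of 1.66.

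Both channels show where the Rab11fip1 ratio moved. In the reference, its normalized log2 level was 10.75 and 11.17 on the dox arrays and 10.85 and 10.96 on the dox+TCP arrays. In treated cells it was 12.57 and 13.83 with dox and 13.46 and 14.18 with dox+TCP. The lowest treated level thus lay above the highest reference level, and replicate 2 was the brighter replicate in both channels and groups.

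Rab11fip5 (also called Rip11), an effector known for apical recycling, gave 0.68 and 1.33 with dox and 1.43 and 1.48 with dox+TCP. The mean rise was 1.01 ± 0.18 with dox, or 2.01-fold, and 1.46 ± 0.18 with dox+TCP, or 2.74-fold (limma adjusted p = 0.0455 and 0.0257). A second probe was less even, at -0.04 and 0.98 with dox and 0.48 and 1.54 with dox+TCP, and did not pass. Rab11fip3, which also binds Arf6 and works at the midbody during cell division, gave 0.53 and 0.91 with dox and 0.80 on both dox+TCP arrays. Its mean was 0.72 ± 0.12 and 0.80 ± 0.12 (limma adjusted p = 0.0405 and 0.0336). Rab11fip2, a partner of the motor myosin Vb, stayed between 0.08 and 0.13 on the 4 arrays. Rab11fip4 gave -0.21 and -0.71 with dox and -0.34 and -0.86 with dox+TCP, and its second probe gave positive values of 0.49, 0.42, 0.41 and 0.13. Neither probe of Rab11fip4 passed (limma adjusted p = 0.222 and 0.134 for the first).

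**Figure D2:**
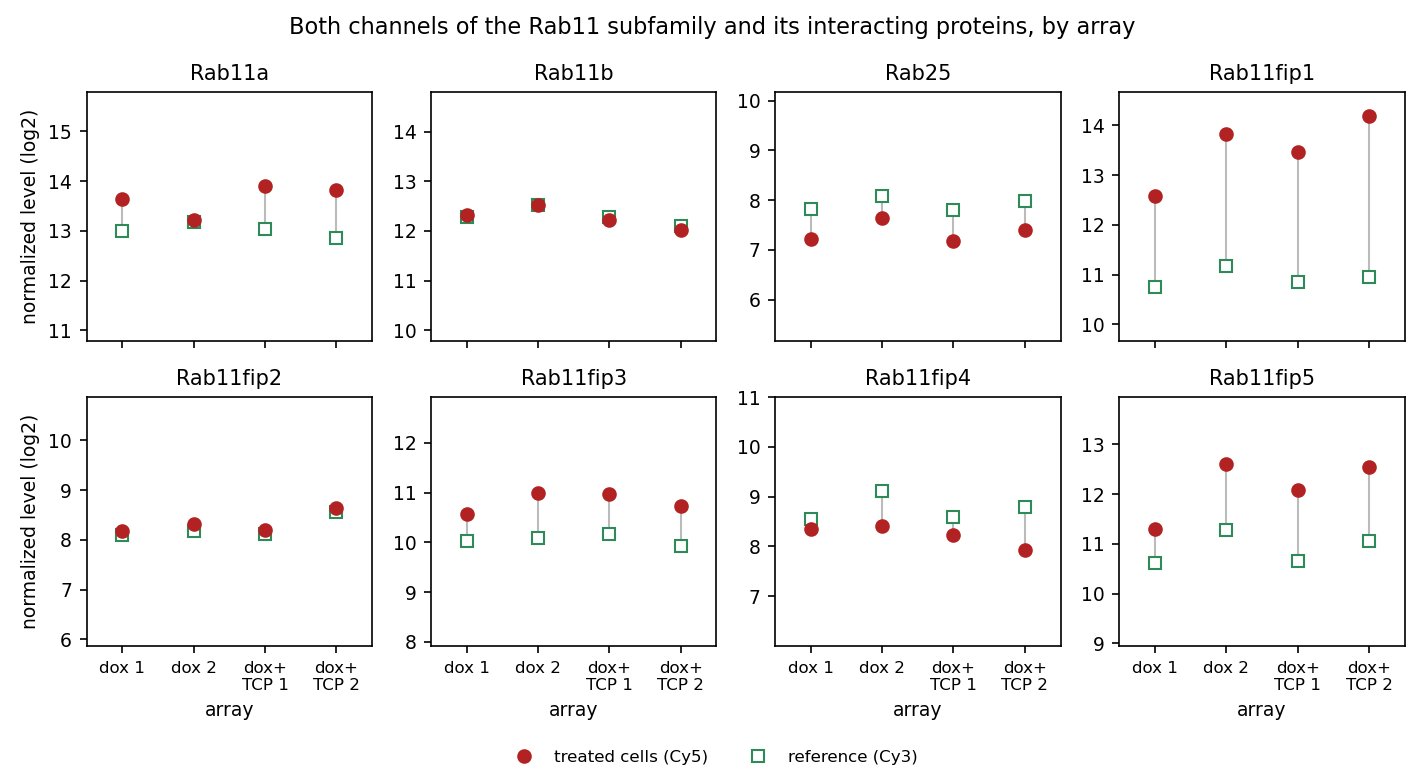
Normalized log2 level (y axis) of 3 Rab11 subfamily genes and 5 Rab11 interacting proteins on each of the 4 arrays (x axis), with treated cells as filled circles and the reference as open squares, joined by a line for each array. All panels span the same height, levels cannot be compared between panels because each is a different probe, and Rab11fip1 shows the widest gap while in Rab25 the treated cells lie under the reference on every array.

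Outside the Rab11 branch, Rab15 showed the most even rise. Rab15, a GTPase of the recycling compartment of neural and other cells, gave log2 ratios of 1.73 and 1.69 with dox and 1.75 and 1.71 with dox+TCP. The 4 arrays spanned only 1.69 to 1.75, and the groups overlapped. The mean rise was 1.71 ± 0.08 with dox, or 3.28-fold, and 1.73 ± 0.08 with dox+TCP, or 3.32-fold (limma adjusted p = 0.0127 and 0.0159). It was the member with the smallest adjusted p in each comparison. Its reference level was nearly flat, at 13.70 to 13.97 on the log2 scale, and its treated level was 15.44 to 15.68. Rab15 was placed in the role group of granule traffic and exocytosis. Of the 6 other tested genes of that group, none passed in either comparison by its brightest probe. A second Rab37 probe passed in both, with means of 0.71 with dox and 0.90 with dox+TCP (limma adjusted p over probes = 0.0291 and 0.0220). Among the 6 genes, Rab3a, the synaptic vesicle GTPase, ranged from 0.13 and 1.57 with dox to 0.80 and 1.32 with dox+TCP.

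Rab20, a GTPase of phagosomes and of epithelial cells, gave 1.16 and 1.07 with dox and 1.29 and 1.04 with dox+TCP. The groups overlapped, with a mean rise of 1.11 ± 0.10 and 1.17 ± 0.10, or 2.16-fold and 2.25-fold (limma adjusted p = 0.0187 and 0.0182). Its level was higher in replicate 2 in both channels: the reference had 7.64 and 7.61 in replicate 1 against 8.47 and 8.58 in replicate 2, and treated cells had 8.79 and 8.90 against 9.54 and 9.62. That gap of 0.90 was the widest of the 55 genes in the reference channel, and the ratio was nevertheless near 1 on each array. In the same late endosomal and lysosomal group, Rab38, which serves melanosomes and lamellar bodies, was the 1 gene of 8 that was lower. Rab38 gave -0.68 and -0.59 with dox and -0.85 and -0.83 with dox+TCP, with means of -0.63 ± 0.08 and -0.84 ± 0.08 (limma adjusted p = 0.0262 and 0.0192). The scanner software's own ratios for Rab38 were larger in size, at -1.74 and -1.39 with dox and -2.30 and -1.83 with dox+TCP. Rab38 was not well above background in dox+TCP cells, so the fall there is at least 1.78-fold, set against the dimmest signal well above background. The 6 other genes of this group, among them Rab7 of the late endosome at 0.03 and 0.02, passed in neither comparison by their brightest probes. Another Rab12 probe passed with dox at 0.52, and yet another with dox+TCP at 0.51 (limma adjusted p over probes = 0.0435 and 0.0498).

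Of 12 tested genes of the endoplasmic reticulum and Golgi, Rab2a and Rab33b were higher and Rab19 lower in both groups, and Rab1b was lower with dox+TCP. Rab2a, which acts between these compartments and on lysosomes, gave 1.12 and 1.28 with dox and 0.77 and 0.84 with dox+TCP, and the groups did not overlap. Its mean was 1.20 ± 0.09, or 2.30-fold, and 0.81 ± 0.09, or 1.75-fold (limma adjusted p = 0.0152 and 0.0217). A second probe of Rab2a did not bear this out: it gave 0.54 and -0.55 with dox and 0.11 and -0.63 with dox+TCP, with means of -0.005 and -0.26 that did not pass. Rab33b, a Golgi GTPase that also binds the autophagy protein Atg16l1, gave 1.13 and 0.72 with dox and 1.01 and 0.89 with dox+TCP. The dox+TCP values lay between the dox values, and the means were 0.93 ± 0.13 and 0.95 ± 0.13 (limma adjusted p = 0.0314 and 0.0289).

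Rab19 gave -0.79 and -0.61 with dox and -0.69 and -0.54 with dox+TCP, all below 0, with means of -0.70 ± 0.10 and -0.61 ± 0.10 (limma adjusted p = 0.0301 and 0.0353). Rab1b, which works in transport from the endoplasmic reticulum to the Golgi, gave -0.83 and -0.42 with dox and -0.83 and -0.88 with dox+TCP. Its means were -0.63 ± 0.13 (limma adjusted p = 0.0585) and -0.86 ± 0.13 (limma adjusted p = 0.0336), so only the dox+TCP value passed, and a second probe with means of -0.16 and -0.31 did not. Centred on array medians, the dox+TCP means of Rab19 and Rab1b were -0.39 and -0.38 and neither passed. Rab1a, the close relative of Rab1b, gave 0.75 and -0.31 with dox and 0.76 and 0.51 with dox+TCP and did not pass. Rab6a did not pass by its brightest probe, while a second probe passed with dox at 0.62 (limma adjusted p over probes = 0.0381).

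Among 10 genes of the early endosome and fast recycling, Rab21 and Rab5b rose in both groups and none was lower. Rab21, which guides integrin traffic, gave 0.72 and 0.96 with dox and 0.59 and 0.56 with dox+TCP, so all dox values lay above the dox+TCP values. Its means were 0.84 ± 0.10 and 0.57 ± 0.10 (limma adjusted p = 0.0237 and 0.0402), and a second probe with means of 0.34 and 0.43 did not pass. Rab5b, 1 of the 3 Rab5 GTPases that organise early endosomes, gave 0.53 and 0.46 with dox and 0.51 and 0.42 with dox+TCP. Its means were 0.50 ± 0.08 and 0.46 ± 0.08 (limma adjusted p = 0.0376 and 0.0420). Another Rab5b probe, with means of 0.52 and 0.43, passed with dox only (limma adjusted p over probes = 0.0395 and 0.0532). The last Rab5b probe, with means of 0.18 and 0.10, did not pass. The other Rab5 genes did not pass: Rab5a gave 0.16 and -1.11 with dox, and Rab5c gave 0.43 and -0.56, so the replicates of each lay on opposite sides of 0. Rab4a, Rab4b, Rab14, Rab22a, Rab31 and Rab35 passed in neither comparison by their brightest probes. A second Rab22a probe passed with dox, at 0.51 (limma adjusted p over probes = 0.0488).

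Of the 5 genes of cilia, signalling and other roles, Rab40b and Rab28 were higher with dox and none passed with dox+TCP; the difference between the groups passed for neither gene. Rab40b, whose relatives recruit a ubiquitin ligase, gave 0.54 and 0.75 with dox and 0.42 and 0.44 with dox+TCP. By the scanner software's own ratios Rab40b was at 3.11 and 2.70 with dox and 1.27 and 1.64 with dox+TCP. Its reference signal was not well above background on any array, so the rise is at least 1.53-fold with dox (fitted mean 0.64 ± 0.09, limma adjusted p = 0.0316; with dox+TCP limma adjusted p = 0.0607). Rab28, a GTPase of cilia and photoreceptors, gave 0.50 and 0.59 with dox and 0.20 and 0.10 with dox+TCP, with means of 0.54 ± 0.08 and 0.15 ± 0.08 (limma adjusted p = 0.0345 and 0.307). Its second tested probe did not pass, with means of 0.15 with dox and -0.36 with dox+TCP. Rab34, which acts in building cilia, was below 0 on every array at -1.34 and -0.59 with dox and -0.91 on both dox+TCP arrays, and narrowly missed the threshold (limma adjusted p = 0.0606 and 0.0656). The 5 genes of polarised delivery to the plasma membrane, Rab8a, Rab8b, Rab10, Rab13 and Rab17, passed in neither comparison. Their dox means ran from -0.04 for Rab17, an epithelial GTPase, to 0.93 for Rab13, which serves tight junctions.

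Rab27b, Rab36, Rab39b and Rab3c were too dim for the test. Of these, Rab27b and Rab3c were not well above background in either channel of any array. Their ratios stayed between -0.12 and 0.25 and say little at that signal.

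**Figure D3:**
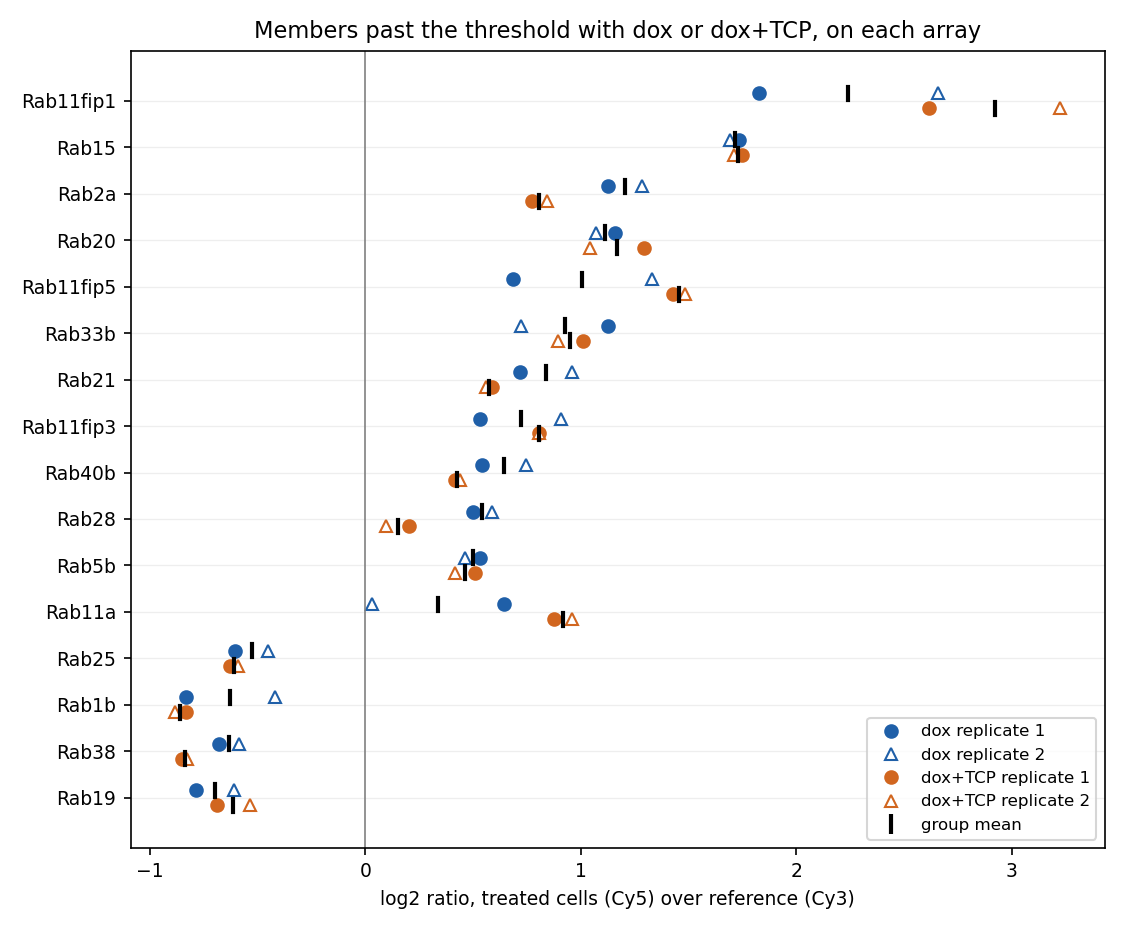
Log2 ratio of treated cells over the reference (x axis) on each array, for the genes (y axis) past limma's threshold with dox, with dox+TCP or with both. Circles are replicate 1, triangles replicate 2, blue dox, orange dox+TCP and black bars group means; Rab11fip1 has the highest ratio on every array, up to 3.23, and the genes under Rab11a lie below 0 on all 4 arrays.

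Adding TCP to doxycycline, the comparison closest to the question in the study's title, changed no Rab or Rab11fip gene past the threshold. In limma 0 of 55 passed, against 0% of all tested genes. At an unadjusted p under 0.05 there were 3 members, 1 higher and 2 lower, against 4.4% of all genes. The groups did not overlap for 17 members (30.9%), close to the 33.1% of all genes. The median difference was 0.03 for the set and 0.04 for all genes. By the intervals, 39 of the 55 genes had a 95% interval inside 2-fold either way, and its reach to either side ran from 0.30 to 1.60 on the log2 scale with a median of 0.55. For the other 16 genes the interval reached 2-fold.

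The 4 members with the smallest unadjusted p were Rab28, Rab2a, Rab6b and Rab11a, all with a limma adjusted p of 0.996. Rab28 was lower with dox+TCP by -0.39 (95% interval -0.73 to -0.06), and the difference was -0.30 between the replicate 1 arrays, which shared a slide, and -0.49 between the replicate 2 arrays. Its second tested probe gave -0.51. Rab2a differed by -0.40 (-0.75 to -0.05), at -0.35 within the shared slide and -0.44 in replicate 2. Rab6b, the Golgi GTPase of neural cells, gave -0.47 and 0.25 with dox and 0.64 and 0.95 with dox+TCP. That is a difference of 0.90 (0.04 to 1.76), at 1.1 within the shared slide and 0.70 in replicate 2, and 0.37 by a second probe. Rab11a differed by 0.58 (-0.13 to 1.29), at 0.23 within the shared slide and 0.93 in replicate 2. Its other probes gave 0.16 and -0.11, the latter with the sign turned, and the second probe of Rab2a gave -0.26.

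For the apical genes, the difference between dox+TCP and dox was 0.68 for Rab11fip1 (-0.42 to 1.78), at 0.79 and 0.57 in replicates 1 and 2. The second Rab11fip1 probe turned the sign, at -0.18. For Rab25 the difference was -0.08 (-0.42 to 0.26), and it was 0.15 where local backgrounds were used as read. Rab11fip5 differed by 0.45 (-0.28 to 1.18), with both dox+TCP values above both dox values. Rab15 differed by 0.02 (-0.29 to 0.32). Rab11b differed by -0.08 (-0.39 to 0.22) and Rab11fip2 by -0.02 (-0.32 to 0.29), so that for these 3 genes the interval lay well inside 2-fold.

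**Figure D4:**
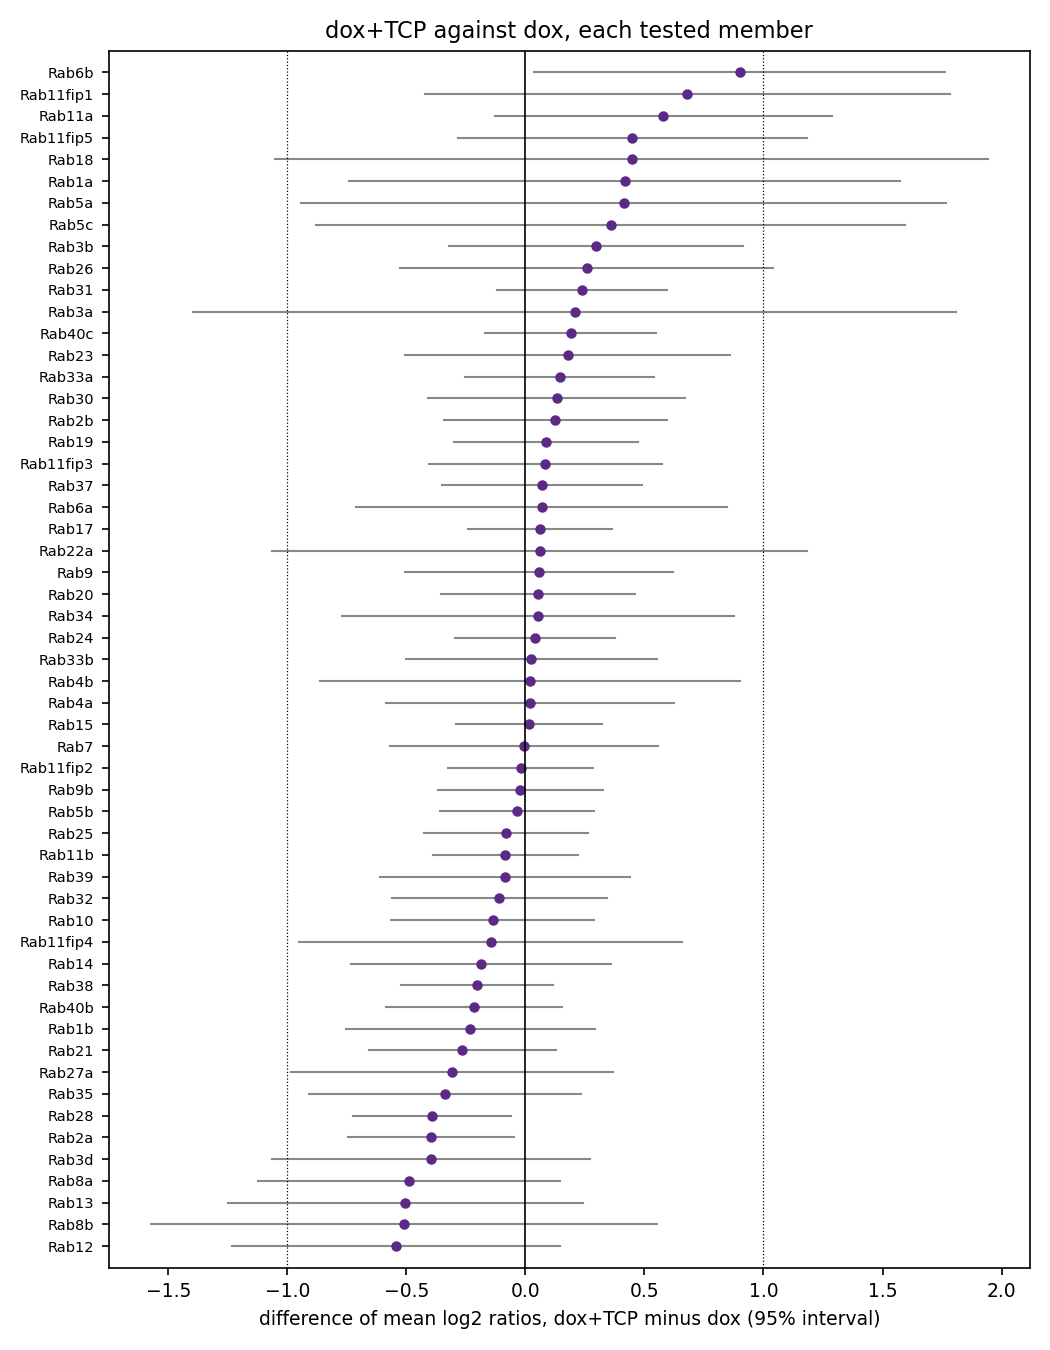
Difference of the mean log2 ratio between dox+TCP and dox (x axis) for each of the 55 tested genes (y axis), with limma's 95% interval as a grey line and dotted lines at 2-fold either way. The interval of 3 genes leaves out 0, before any adjustment, and 16 intervals reach a dotted line.

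The machinery around the Rab genes was read from lists of their regulators and partners. Of 43 tested exchange factors, 7 were higher and 1 lower with dox (18.6%), and 9 were higher and 3 lower with dox+TCP (27.9%), beside 14.6% and 15.4% of all genes. Sh3bp5, an exchange factor for Rab11, gave 2.70 and 1.80 with dox and 2.60 and 1.91 with dox+TCP, a mean of 2.25 and 2.26 (limma adjusted p = 0.0288 and 0.0274). Dennd6a, which acts on Rab14, rose by 1.09 with dox and 1.56 with dox+TCP (limma adjusted p = 0.0204 and 0.0169). Dennd1a, which acts on Rab35, rose by 1.07 and 0.78 (limma adjusted p = 0.0163 and 0.0218). Mon1b, part of the complex that loads Rab7, rose by 0.85 and 0.65 (limma adjusted p = 0.0242 and 0.0347). Dennd2c was the 1 exchange factor that was lower with dox, at -1.0 (limma adjusted p = 0.0176).

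Of 35 GAPs, 4 were higher and 1 lower with dox (14.3%), and 2 were higher and 1 lower with dox+TCP (8.57%). Sgsm1 rose by 1.69 and 1.87 (limma adjusted p = 0.0204 and 0.0184), Tbc1d9b rose by 1.28 and 1.13 (limma adjusted p = 0.0225 and 0.0257), and Tbc1d13, which acts on Rab35, was lower at -0.89 and -0.72 (limma adjusted p = 0.0174 and 0.0214). Of 42 tested effectors outside the Rab11fip genes, 2 were higher and 2 lower with dox (9.52%), and 4 and 3 with dox+TCP (16.7%). Optn (optineurin, a Rab8 effector) rose by 1.43 and 1.23 (limma adjusted p = 0.0215 and 0.0253), and Mical1, an actin-oxidising Rab effector, was lower at -0.88 and -0.99 (limma adjusted p = 0.0204 and 0.0182). Of 11 genes for prenylation, GDI and carriers, 2 were higher with dox, among them Yipf4, a Golgi membrane protein, at 0.59 (limma adjusted p = 0.0266). With dox+TCP 2 were higher and 1 lower.

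Of 27 tested partners in apical membrane traffic, 7 were higher and 1 lower with dox (29.6%), with a median of 0.42. With dox+TCP 5 were higher and 2 lower (25.9%), with a median of 0.11. Podxl (podocalyxin, an apical sialomucin) gave 2.57 and 2.40 with dox and 1.83 and 1.49 with dox+TCP, and Crb3, a polarity protein, gave 1.65 and 1.87 with dox and 1.02 and 1.01 with dox+TCP. For each of these, every dox value lay above the dox+TCP values, though no gene passed in that comparison. Pard6b, also a polarity protein, rose by 1.93 and 1.91 (limma adjusted p = 0.0152 and 0.0169). Slc9a3r1, the scaffold that holds ezrin under the apical membrane, was the 1 lower gene with dox, at -0.90, and was at -1.10 with dox+TCP (limma adjusted p = 0.0169 and 0.0167). The other partner that was lower with dox+TCP was Prkci, an atypical protein kinase C, at -0.47 (limma adjusted p = 0.0358). Among 11 tested epithelial markers, 7 were higher with dox, and 4 were higher and 1 lower with dox+TCP.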

How the data were processed

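RNA was measured on 4 two-colour Agilent arrays, 2 dox and 2 dox+TCP, with treated cells in Cy5 and the reference in Cy3, per the labels. The deposited spot and background values are linear intensities read from each scan by Agilent Feature Extraction (version 10.1.1.1), per the submitters' processing notes. The deposited log10 ratios were computed by the software after its own background and dye steps, per the file headers, and the authors' series matrix matched them within 0.005.

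In R 4.3.3 with limma 3.58.1, mean signals were corrected with normexp (offset 50) and loess within arrays, control spots having weight 0. A local background more than 2 times the median of its array and channel was set to that median, which affected 11 to 112 spots each. Spots marked as outliers were set to missing and spots of a probe averaged. A probe was tested where well above background on both Cy5 arrays of a group or on all 4 Cy3 arrays. A gene is its brightest tested probe. Probe positions are in mm7, per the file headers; symbols were updated through a GRCm38.p6 table, where accessions gave 22968 matches, symbols 6642 and synonyms 3109, with 8455 probes left under their own name.

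limma was fitted with 1 mean per group over all 4 arrays (2 residual and 1.79 prior degrees of freedom), with eBayes and Benjamini-Hochberg adjustment over all 21409 tested genes at 0.05. Each array carried its own Cy3 signal of the reference, so differences between the references enter the spread of the ratios. No separate spread was estimated for the reference. Levels per channel are after loess and Aquantile. The number of arrays limits the precision. The fit was tested on simulated data. Alternatives covered background, offset, normalization, the software's ratios, filters, probe choice, the replicate number as a block and left-out arrays. The genes, lists and alternatives were chosen with earlier results of these data known. Values on each array are given for the Rab11 branch, for called genes up to the 12 largest in a comparison, and for the 4 smallest p between dox+TCP and dox; others named by array were chosen after their values were seen. Some values of a listed gene are not reported here.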

Additional observations from a re-analysis of the deposited data

How the results depend on the processing

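The counts of Rab and Rab11fip genes past the threshold were 14 with dox, 14 with dox+TCP and 0 between them. Under most settings those against the reference stayed within 1.5 times that: 12 to 15 with dox and 11 to 15 with dox+TCP. Over all genes these settings called 11.1% to 15.8% with dox and 11.6% to 16.5% with dox+TCP. They covered no background subtraction, an offset of 16, background limits of 5 and 10 times the median and the software's own ratios. Also among them were both other filters, the mean of a gene's probes, outlier spots kept and the second brightest probe. The counts moved to 0 in both comparisons with local backgrounds as read, where no gene of the array passed. There 7 members with dox and 9 with dox+TCP had an unadjusted p under 0.05 in limma. Over all 21409 tested genes 1899 and 1965 did. Median centring gave 28 with dox and 21 with dox+TCP, while over all genes it called 28.1% and 23.9%. With dox arrays only the dox count was 0, and with dox+TCP arrays only the dox+TCP count was 25 (27.7% of all genes). Leaving out 1 array leaves 1 array in a group, so only the set's median log2 ratio is given. It ran from 0.06 to 0.20 with dox and from 0.04 to 0.09 with dox+TCP. Between dox+TCP and dox the count was 0 in every setting that kept 2 arrays in each group, including Cy5 levels alone. In these settings 0 to 4 members had an unadjusted p under 0.05 in limma, beside 341 to 1625 of all tested genes.

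The sign turned for Rab2a with its second probe, at -0.0049 with dox and -0.26 with dox+TCP, for the Rab11fip1 difference between dox+TCP and dox with its second probe, at -0.18, and for the Rab25 difference with backgrounds as read, at 0.15; none of these passed, and the cause was not tested.

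Replicate numbers do not show a pairing in the labels, though the replicate 1 arrays shared a slide. Deviations of same-numbered arrays correlated at 0.472 over all genes. Log2 ratios of the 2 dox arrays correlated at 0.662 over all genes, and those of the 2 dox+TCP arrays at 0.865. For the set these values were 0.678 and 0.92. The pooled spread therefore joins a less even dox pair with a more even dox+TCP pair. With the replicate number as a block, 20 members passed with dox (12 higher and 8 lower), 18 with dox+TCP and 0 between them. Over all genes that setting called 22.8% with dox, 24% with dox+TCP and 0% between them. Slide and scan day as random blocks could not be fitted with 4 arrays. Only dox+TCP replicate 2 was scanned on another day, so scan day and that array cannot be told apart. Dim signal limits Rab38, Rab40b and the 4 untested genes.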

Other observations

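Several genes of the wider Rab family carry names outside the pattern that defined the set. Rab29, a relative of Rab32 and Rab38 known for recruiting the kinase Lrrk2, gave log2 ratios of 0.64 and 0.73 with dox and 1.03 and 0.69 with dox+TCP, and rose in both (mean 0.68 ± 0.12 and 0.86 ± 0.12, limma adjusted p = 0.0417 and 0.0285). Ift27, the Rab-like subunit of the ciliary transport complex, was lower with dox at -0.68 (limma adjusted p = 0.0466) and at -0.47 with dox+TCP (limma adjusted p = 0.0888). Rabl2, also a ciliary Rab-like GTPase, was at -0.25 with dox (limma adjusted p = 0.116) and lower with dox+TCP at -0.46 (limma adjusted p = 0.0375). Rab42, Rab43, Rab44, Rab7b, Rabl3, Rabl6, Ift22 and Rap1gds1, a chaperone of small GTPases, passed in neither comparison. These genes were read from the fit over all genes, and none passed between dox+TCP and dox.

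Of 6 neuronal markers, 4 were lower in each comparison, and Snap25 and Syt1 did not pass. Stmn2 was at -4.26 and -4.09 with dox and -3.79 and -3.78 with dox+TCP. The synaptic GTPases Rab3a and Rab3b were not lower in either group.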
